A study of Mus musculus with 16 samples.

Results

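The genes described here are 47 nucleolar ribosome biogenesis genes, chosen by symbol from a named list, and their transcript levels were compared between cultures that overexpress *Dbx2*, a homeobox transcription factor gene, and cultures that express *GFP*. All 47 symbols were found among the 30386 genes of the deposited table, and all 47 were among the 12533 genes with more than 1 CPM (the reads of a gene, scaled so that every sample has the same total) in at least 4 of the 16 samples, which are the genes that were tested. The cells were neural stem/progenitor cells (NSPCs) from the subventricular zone of the brain of mice aged 3 months, kept in proliferative non-adherent culture. The 8 *GFP*-NSPC cultures carried a constitutive *GFP* transgene and the 8 *Dbx2*-NSPC cultures a constitutive mouse *Dbx2* transgene, each brought in on a plasmid and held by puromycin selection, so both groups were transfected and drug-selected and neither is untreated. The lines came from 2 independent derivations, each giving a pair of lines, and every pair was used in 4 experiments, but the labels do not name the line of any sample. They do number the cultures of each group from 1 to 8, and p-values over these cultures measure the spread between experiments on few lines, not between animals.

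Ribosomes are built in the nucleolus. RNA polymerase I makes a long precursor RNA there, box C/D and box H/ACA ribonucleoproteins, guided by small nucleolar RNAs, methylate its riboses and turn uridines into pseudouridines, and a succession of assembly factors cuts and folds it into the small and the large subunit. Growing and dividing cells make ribosomes at a high rate, and in the adult subventricular zone the protein synthesis machinery is known to be low in quiescent stem cells and high in activated ones. The 47 genes were therefore read in 6 groups by role, namely 3 of RNA polymerase I transcription, 6 of nucleolar organisers and chaperones, 3 of the box C/D core, 4 of the box H/ACA core, 14 of small subunit processing and 17 of large subunit processing.

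The sequences shown here are stretches around the starts of members that the results below turn on, taken from RefSeq promoters of GRCm38.p6, the build of the deposited data, which hold 250 bases before and 50 after a start. Of the 47 genes, 41 had such an entry, and *Bop1*, *Fbl*, *Gnl2*, *Npm1*, *Rrp12* and *Rrs1* had none. The E-box CACGTG, which reads the same on both strands and is the motif that Myc family factors are known to bind, stood in the promoters of 10 of the 41 genes (24.4%), against 11.9% of the tested genes with an entry and 8.09% of all genes with one. It lay after the start, between positions 3 and 41, in 7 of the 10 and before it in 3. The 30 bases around it are shown on the gene's strand, 5′ to 3′ with the E-box in capitals, for *Grwd1*, which had the smallest p of all 47, and for 4 members that fell in the cultures numbered 5 to 8. They lie at chr7:45830740-45830769, chr10:13193092-13193121, chr11:3963965-3963994, chr10:88826765-88826794 and chr17:71616220-71616249, in the order printed, with *Pes1* and *Wdr43* on the plus strand and the others on the minus strand. The E-boxes begin at positions 35, 29, 3, 38 and 18, counting from the first transcribed base in RefSeq, which is itself counted.
Grwd1: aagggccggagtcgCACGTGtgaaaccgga
Ltv1: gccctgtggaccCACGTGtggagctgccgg
Pes1: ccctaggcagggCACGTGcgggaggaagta
Utp20: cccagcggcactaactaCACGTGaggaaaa
Wdr43: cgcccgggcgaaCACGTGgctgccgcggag
The other members with an E-box were *Imp4*, *Mybbp1a*, *Nop2*, *Tsr1* and *Utp18*, none of which was called within either set of numbers. The other members that fell in numbers 5 to 8, *Ddx21*, *Dkc1*, *Nop56*, *Rrp1b* and *Noc2l*, had an entry without an E-box. Whether an E-box goes with a change was not tested. The ETS-type motif CCGGAAG, on either strand, was in 34.1% of the 41 promoters and 20.3% of those of the tested genes, the GC box GGGCGG in 75.6% and 70.3%, the CCAAT box in 39.0% and 43.5%, and TATAAA in 4.88% and 8.21%. A match is only a match of letters, and what binds there was not measured.

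The 100 bases before the starts of *Noc2l* and *Ddx21* are also shown, because these 2 genes had the smallest p for a change of the *Dbx2*-to-*GFP* difference between the lower and the higher replicate numbers. They are at chr4:156235910-156236009 on the plus strand and chr10:62602299-62602398 on the minus strand, and capitals mark a GC box. Neither holds an E-box.
Noc2l: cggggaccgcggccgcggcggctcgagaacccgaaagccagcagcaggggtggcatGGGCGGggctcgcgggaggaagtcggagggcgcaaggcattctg
Ddx21: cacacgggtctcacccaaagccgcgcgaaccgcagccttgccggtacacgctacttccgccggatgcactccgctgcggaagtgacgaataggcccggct

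The libraries were QuantSeq 3′ libraries, whose reads lie near the end of the transcript, and held 1803928 to 3258885 reads on genes in *GFP*-NSPCs and 2214008 to 3293285 in *Dbx2*-NSPCs. *Dbx2* itself averaged 77.2 ± 51.8 CPM in the *GFP* cultures (SD, n = 8) and 154.9 ± 35.4 CPM in the *Dbx2* cultures, higher in the *Dbx2* culture of every one of the 8 numbers (log2 fold change 1.26, limma adjusted p = 0.00978). *GFP* cultures numbered 1 to 4 held 89.3 to 171.2 CPM of *Dbx2* and those numbered 5 to 8 held 30.7 to 39.5 CPM, where the *Dbx2* cultures of these numbers held 136.0 to 232.1 and 114.0 to 155.2 CPM. The share of reads on mitochondrially encoded genes was 3.19% to 6.96% in *GFP*-NSPCs and 4.17% to 8.17% in *Dbx2*-NSPCs, and was higher in the *Dbx2* culture of all 8 numbers. All 10 neural stem/progenitor markers were tested, with a summed level of 6724.6 to 7777.8 CPM in the *GFP* and 5792.2 to 7279.4 CPM in the *Dbx2* cultures, and 3 of them (*Egfr*, *Fabp7* and *Pax6*) were lower in *Dbx2*-NSPCs. The 12 proliferation markers summed to 2061.1 to 3163.3 and 1949.8 to 3610.0 CPM, and *Ccnb1*, *Ccna2* and *Aurkb* were lower. Microglial and endothelial or mural markers summed to at most 2.11 CPM in any culture, with *Aif1*, *Tmem119*, *Cldn5* and *Cdh5* at 0. Astrocyte markers summed to 394.4 to 1120.0 CPM with *GFP* and 783.3 to 1058.6 CPM with *Dbx2* (1 of 6 lower and 2 higher), ependymal markers to 10.3 to 25.8 and 21.9 to 44.9 CPM (*Rarres2* and *Ccdc153* higher, *Tmem212* at 0), neuroblast and neuron markers to 18.8 to 48.9 and 22.5 to 91.2 CPM (*Neurod1* higher, *Stmn2* at 0), and oligodendrocyte markers to 3.37 to 8.87 and 4.73 to 14.3 CPM (*Mog* at 0). Their part in the results below was not tested.

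Across the 8 cultures of each group, none of the 47 genes passed the unpaired test between *Dbx2*-NSPCs and *GFP*-NSPCs. The test was limma on log2(CPM + 0.5) with Benjamini-Hochberg adjustment over all 12533 genes, and at an adjusted p under 0.05 it called 15.8% of these, 7.78% as lower and 8.03% as higher with the *Dbx2* transgene. With p unadjusted and under 0.05, 9 members passed, a smaller share than the 29.2% of all tested genes. Of these members 8 were lower (*Grwd1*, *Emg1*, *Nob1*, *Nop10*, *Nip7*, *Dkc1*, *Gar1* and *Surf6*) and 1 was higher (*Noc4l*). edgeR's quasi-likelihood test and DESeq2 on the recovered reads called 0 of the 47 as well, with 15.4% and 17.5% of all tested genes called, and no member had groups without overlap, as 3.41% of the tested genes had. When the test was limited to genes averaging 10 CPM or more, all 47 among them, *Grwd1* alone passed (17.5% of these genes). When same-numbered cultures were paired through a replicate block, 1 member was called, *Utp20*, where 21.7% of all tested genes were. With the number set (1 to 4 or 5 to 8) as a covariate *Utp20*, *Ddx21*, *Dkc1* and *Grwd1* were called, all 4 lower, where 24.2% of all tested genes were. The fit without this covariate, which called none, keeps the difference between the number sets in its spread. With the log2 share of mitochondrial reads as a covariate none was (6.17%). That share was higher in the *Dbx2* culture of all 8 numbers, so this covariate and the transgene cannot be fully told apart. Same-numbered cultures were lower with *Dbx2* in at least 7 of the 8 numbers for 10 members (16.7% of tested genes). The fold changes were negative for 34 members and positive for 13, with a median of -0.088 on the log2 scale, whereas 52.7% of all tested genes were negative, with a median of -0.022. Over the genes averaging 10 CPM or more, as all 47 did, the median was -0.045. The 95% intervals of all 47 estimates lay within a 2-fold change in either direction, the lowest bound being -0.97 and the highest 0.44 on the log2 scale. Since these were bulk samples, fewer cells with high levels and less RNA in each cell cannot be told apart.

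**Figure D1:**
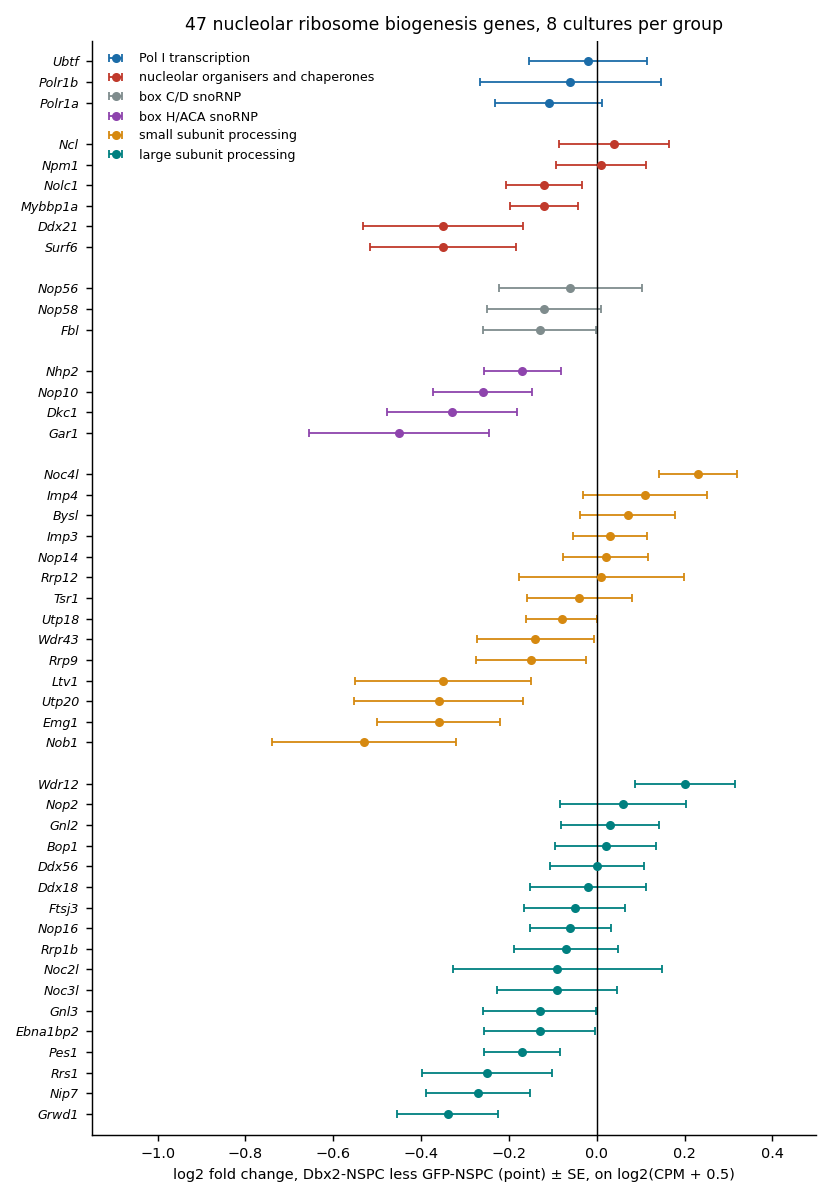
Log2 fold change between *Dbx2*-NSPCs and *GFP*-NSPCs of each of the 47 genes (points) with its standard error (bars), on log2(CPM + 0.5), grouped and coloured by role, from 8 cultures per group. Estimates run from -0.53 for *Nob1* to 0.23 for *Noc4l*, all 4 genes of the box H/ACA core lie to the left of 0, and no gene passed the test.

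The genes of RNA polymerase I transcription differed little between the groups. *Polr1a*, encoding the largest subunit of the enzyme, ranged from 42.7 to 73.1 CPM (median 61.7) in *GFP*-NSPCs and from 44.3 to 68.6 CPM (median 57.6) in *Dbx2*-NSPCs, or -0.11 ± 0.122 (SE) on the log2 scale (limma, adjusted p = 0.607). *Polr1b*, the second largest subunit, ranged from 7.05 to 15.6 CPM (median 11.8) and from 5.90 to 14 CPM (median 11.5), and its log2 fold change was -0.06 ± 0.207. The groups overlapped over nearly their whole ranges for both subunits. *Ubtf*, which encodes the factor that binds ribosomal DNA and recruits the enzyme, had means of 122.4 ± 29.7 and 118.7 ± 16 CPM (SD, n = 8) and a log2 fold change of -0.02.

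The 2 most highly represented members were the nucleolar proteins nucleolin and nucleophosmin, and neither differed between the groups by more than the spread. *Ncl* ranged from 1247.3 to 2225.2 CPM (median 1630.1) in *GFP*-NSPCs and from 1328.2 to 2256.8 CPM (median 1717.3) in *Dbx2*-NSPCs, with a log2 fold change of 0.04 and a 95% interval from -0.22 to 0.30. *Npm1* ranged from 711.5 to 1225.9 CPM (median 925.0) and from 787.6 to 1101.5 CPM (median 921.1), with a log2 fold change of 0.01 and an interval from -0.21 to 0.22. *Npm1* is known for processed pseudogenes that can share its reads, and how shared reads were counted is not given in the sources used here. *Surf6*, a nucleolar protein that binds nucleic acids, was the only one of the 47 that was lower in the *Dbx2* culture of all 8 numbers, where 7.47% of the tested genes were. It ranged from 15.3 to 24.9 CPM (median 16.2) in *GFP*-NSPCs and from 7.89 to 16.9 CPM (median 14.6) in *Dbx2*-NSPCs, a fold of -0.35 ± 0.167 on the log2 scale (limma, adjusted p = 0.167).

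*Ddx21*, an RNA helicase of the nucleolus that acts on both RNA polymerase I transcription and precursor processing, had the same fold change as *Surf6* but a different spread. It ranged from 326.3 to 807.4 CPM (median 555.4) in *GFP*-NSPCs and from 323.9 to 500.9 CPM (median 442.0) in *Dbx2*-NSPCs, a fold of -0.35 ± 0.182 on the log2 scale (limma, adjusted p = 0.213). The 4 *GFP*-NSPC cultures numbered 5 to 8 lay above every other culture, at 678.16 CPM or more, and the 4 numbered 1 to 4 lay within the range of *Dbx2*-NSPCs. *Nolc1*, a chaperone of small nucleolar ribonucleoproteins, and *Mybbp1a*, a nucleolar regulator of transcription, were each lower in 7 of 8 numbers with a log2 fold change of -0.12.

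In the box C/D core, which carries out ribose methylation, the methyltransferase fibrillarin (*Fbl*) ranged from 38.8 to 58.4 CPM (median 45.5) in *GFP*-NSPCs and from 31.9 to 52.4 CPM (median 45.4) in *Dbx2*-NSPCs. *Nop58*, a scaffold of the same particle, ranged from 229.2 to 441.7 CPM (median 300.4) and from 217.4 to 385.2 CPM (median 286.1). Their log2 fold changes were -0.13 ± 0.129 and -0.12 ± 0.129, and the adjusted p-values were 0.543 and 0.570 in limma, so both were within the spread of the cultures. For *Nop58* this spread holds a difference of 0.43 on the log2 scale between numbers 5 to 8 and 1 to 4. *Nop58* was lower in 7 of 8 numbers and *Fbl* in 5. The log2 fold change of *Nop58* was -0.13 in numbers 1 to 4 and -0.12 in numbers 5 to 8. With the replicate block its adjusted p was 0.144 in limma. Without 1 culture at a time *Fbl* lay between -0.17 and -0.07, the latter without *Dbx2*-NSPC 3 or 4, and *Nop58* between -0.19 and -0.05, the latter without *GFP*-NSPC 8. The other scaffold, *Nop56*, gave -0.06 ± 0.163.

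The box H/ACA core, which carries out pseudouridylation, had the lowest median of the 6 groups by role, -0.297 on the log2 scale, with all 4 genes negative and 3 of them below an unadjusted p of 0.05. *Dkc1*, encoding the pseudouridine synthase dyskerin, ranged from 289.7 to 590.1 CPM (median 384.3) in *GFP*-NSPCs and from 221.2 to 425.2 CPM (median 317.4) in *Dbx2*-NSPCs, or -0.33 ± 0.148 on the log2 scale (limma, adjusted p = 0.138). *Nop10*, a small core protein, ranged from 106.1 to 179.0 CPM (median 160.1) and from 108.3 to 154.6 CPM (median 125.3), with -0.26 ± 0.112 (limma adjusted p = 0.128). The groups overlapped for both genes, and *Nop10* was lower in 7 of 8 numbers and *Dkc1* in 6. With the log2 mitochondrial share as a covariate the log2 fold changes of *Dkc1* and *Nop10* were -0.02 and -0.01. *Gar1*, the subunit that helps release the product, ranged from 37.8 to 56.3 CPM (median 47.0) and from 11.8 to 46.1 CPM (median 37.6), or -0.45 ± 0.205 on the log2 scale (limma, adjusted p = 0.148), and moved to -0.24 when *Dbx2*-NSPC 4, its lowest culture, was left out. *Nhp2*, the RNA-binding member of the core, had means of 119.0 ± 14.8 and 105.3 ± 9.91 CPM (SD, n = 8) and a log2 fold change of -0.17 ± 0.0876.

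Of the 14 genes of small subunit processing, 8 had negative and 6 positive fold changes, with a median of -0.061. *Nob1*, the endonuclease that makes the final cut at the end of the small subunit RNA, had the lowest fold change of all 47, -0.53 ± 0.209 on the log2 scale with an adjusted p of 0.0910 in limma. It ranged from 13.7 to 20.5 CPM (median 17.8) in *GFP*-NSPCs and from 5.74 to 16.7 CPM (median 13.6) in *Dbx2*-NSPCs, and *Dbx2*-NSPC 4 and 8 were the lowest, at 6.46 and 5.74 CPM. *Emg1*, a methyltransferase that acts on small subunit RNA, ranged from 61.3 to 93.3 CPM (median 67.7) and from 31.9 to 74.9 CPM (median 55.5), or -0.36 ± 0.140 on the log2 scale (limma, adjusted p = 0.0876). *Emg1* shares 334 exon bases with *Lpcat3*, which is at 47.6 CPM on the opposite strand, and since the strand used in counting is not given here, reads of the pair may not be told apart. *Noc4l*, which works in a complex with *Nop14* in small subunit assembly, was the member of largest increase, and its ranges barely met, 25.5 to 33.3 CPM (median 28.7) in *GFP*-NSPCs and 31.6 to 37.5 CPM (median 34.4) in *Dbx2*-NSPCs. Its log2 fold change was 0.23 ± 0.0884 by limma (adjusted p = 0.0820), while *Nop14* itself was at 103.4 and 104.1 CPM. *Utp20*, a large scaffold of the early small subunit particle, did not pass without pairing (-0.36 ± 0.193, limma adjusted p = 0.232) and was lower when the replicate number was fitted as a block (limma adjusted p = 0.0473). edgeR with the number set as a covariate called *Utp20* and *Grwd1* lower and *Noc4l* higher, with 23.4% of tested genes called.

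Of the 17 genes of large subunit processing, 12 were negative and 5 positive, with a median of -0.074. *Grwd1*, a chaperone of a ribosomal protein of the large subunit, came nearest to the threshold of all 47, at -0.34 ± 0.116 on the log2 scale with an adjusted p of 0.0558 in limma (0.0716 in edgeR and 0.0684 in DESeq2). It ranged from 28.7 to 42.0 CPM (median 32.7) in *GFP*-NSPCs and from 19.9 to 33.8 CPM (median 27.5) in *Dbx2*-NSPCs and was lower in 7 of 8 numbers. It was called when *GFP*-NSPC 3 (-0.37) or *Dbx2*-NSPC 5 (-0.39) was left out, and across all alternatives its adjusted p lay between 0.0324 and 0.230. *Nip7*, an assembly factor that acts on precursor processing, ranged from 24.1 to 30.3 CPM (median 28.4) and from 15.8 to 28.3 CPM (median 23.5), with -0.27 ± 0.118 (limma adjusted p = 0.131). *Gnl3*, the GTPase nucleostemin known from stem cells and tumour cells, had means of 190.8 ± 46.5 and 171.3 ± 22.5 CPM (SD, n = 8) and a log2 fold change of -0.13 ± 0.129. The members with a positive fold change in this group were *Wdr12*, *Nop2*, *Gnl2*, *Bop1* and *Ddx56*, between 0.00 and 0.20.

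As a mean score per sample, which is the mean log2(CPM + 0.5) of the 47 genes less the mean of all tested genes, the members stood at 2.01 ± 0.183 (SD, n = 8) in *GFP*-NSPCs and 1.88 ± 0.101 in *Dbx2*-NSPCs. The score ranged from 1.73 to 2.21 (median 2.03) and from 1.68 to 1.98 (median 1.91), so the groups overlapped. The difference was -0.135, smaller than the SD of *GFP*-NSPCs, yet the *Dbx2* culture was the lower one in all 8 numbers. In numbers 1 to 4 the difference was -0.0445, from 1.86 ± 0.102 to 1.81 ± 0.107 (n = 4). In numbers 5 to 8 it was -0.226, from 2.17 ± 0.0591 to 1.94 ± 0.0354, and there the 4 *GFP*-NSPC cultures lay above all 4 *Dbx2*-NSPC cultures. Summed over the 47 genes, the level was 7407.3 ± 1224.2 CPM with *GFP* and 6956.0 ± 763.0 CPM with *Dbx2*, a change of -6.1% (0.1% in numbers 1 to 4 and -10.7% in numbers 5 to 8). The mitochondrial share was higher in the group with the lower score, being 3.94% ± 0.686 in *GFP*-NSPCs and 6.58% ± 0.451 in *Dbx2*-NSPCs in numbers 5 to 8. With the log2 of this share as a covariate the score difference was -0.018 and the median fold change of the members 0.025. The part of the share in the difference was not tested.

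**Figure D2:**
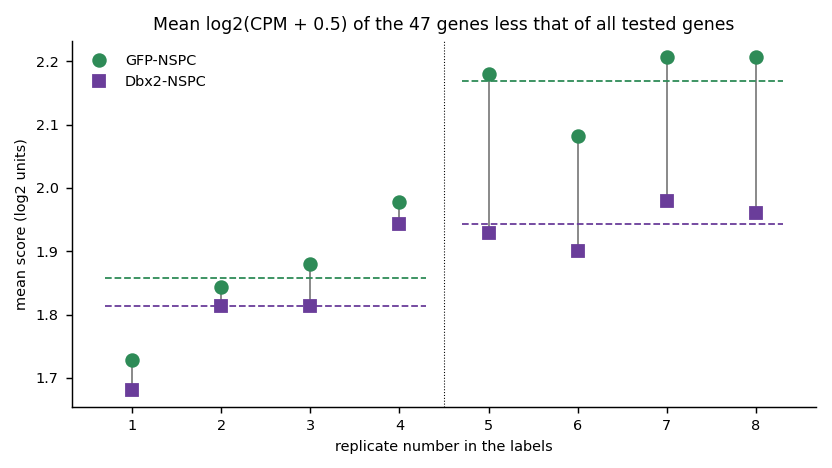
Mean score of the 47 genes in log2 units (vertical axis, which does not start at 0) in each culture by its replicate number (horizontal axis), *GFP*-NSPCs as green circles and *Dbx2*-NSPCs as purple squares, with same-numbered cultures joined and dashed lines for the means of numbers 1 to 4 and 5 to 8. The *Dbx2* culture is the lower one in all 8 numbers, by -0.0445 on average in numbers 1 to 4 and by -0.226 in numbers 5 to 8.

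The split at numbers 1 to 4 and 5 to 8 was seen in these data and is not in the labels, so it is used here only to give the values within each set, the test of the difference between them and, as an alternative, a covariate. Whether the sets are the 2 pairs of lines is not given in the labels. The members differed between the sets in level as well. Their level was higher in numbers 5 to 8 for 42 of the 47 (53.8% of all tested genes), with a median difference of 0.231 on the log2 scale against 0.033 over all tested genes. The exceptions were *Nop10*, *Utp18*, *Noc4l*, *Bysl* and *Ddx56*. In *GFP*-NSPCs all cultures numbered 5 to 8 lay above all numbered 1 to 4 for 21 members (15.0% of tested genes), in *Dbx2*-NSPCs for 11 (10.4%), and in both groups for 6 (4.19%), which were *Ubtf*, *Ncl*, *Nop58*, *Gnl3*, *Ddx18* and *Ebna1bp2*. For *Ncl*, for example, the means were 1462.0 and 1927.7 CPM in *GFP*-NSPCs numbered 1 to 4 and 5 to 8, and 1477.1 and 2009.7 CPM in *Dbx2*-NSPCs, so that the sets differed and the transgenes did not beyond the spread.

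Within numbers 5 to 8, 10 members were called at an adjusted p under 0.05 in limma, 9 lower (11.7% of all tested genes) and 1 higher (11.5%). The 9 that fell were *Ddx21*, *Dkc1*, *Nop56*, *Wdr43*, *Utp20*, *Ltv1*, *Pes1*, *Rrp1b* and *Noc2l*, with log2 fold changes from -1.05 for *Noc2l* to -0.26 for *Nop56*, and *Wdr12* rose. The median over the 47 was -0.171 against -0.012 over all tested genes, and 35 of the 47 were negative, where 51.2% of all tested genes were. Within numbers 1 to 4, *Rrs1* fell and *Noc2l* rose (7.37% and 8.19% of all tested genes), the median was -0.002 against -0.037, and 24 of the 47 were negative (53.9%). With 4 cultures against 4, the groups did not overlap for 12 members lower and 1 higher in numbers 5 to 8 (12.6% and 12.2% of tested genes) and for 5 members in numbers 1 to 4 (19.6%), of which *Rrs1*, *Ddx18* and *Grwd1* were lower and *Noc2l* and *Noc4l* higher.

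*Noc2l*, an assembly factor of the large subunit that is also known as an inhibitor of histone acetyltransferases, went opposite ways in the 2 sets. In numbers 1 to 4 it was at 72.11, 57.49, 53.44 and 51.99 CPM in *GFP*-NSPCs and at 93.11, 106.53, 98.67 and 134.55 CPM in *Dbx2*-NSPCs, or 0.87 ± 0.144 on the log2 scale (limma, adjusted p = 0.00171). In numbers 5 to 8 it was at 118.03, 113.18, 117.14 and 113.50 CPM in *GFP*-NSPCs and at 57.72, 52.81, 47.40 and 65.84 CPM in *Dbx2*-NSPCs, or -1.05 ± 0.105 on the log2 scale (limma, adjusted p = 6.78e-06). All cultures of one group lay above all of the other in each set, in opposite order, and over all 16 cultures the 2 changes left a log2 fold change of -0.09 ± 0.238. The difference between the folds, an interaction term in the same limma model, was -1.92 ± 0.183 with an adjusted p of 6.98e-08. *Noc2l* is at chr4:156236010-156247616 on the plus strand in GENCODE M21 and shares 598 exon bases with *Samd11* on the opposite strand, which was at 0.028 CPM on average. Opposite changes in the sets were not particular to *Noc2l*, since *Nol9*, *Exosc10* and *Mrto4*, further factors given below, had them too.

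The difference between the folds was called for 5 of the 47 genes, a share close to the 9.44% of all tested genes. Beside *Noc2l* these were *Ddx21* (-0.77 ± 0.156, adjusted p = 0.00136), *Ltv1* (-0.93 ± 0.269, adjusted p = 0.0256), *Rrp1b* (-0.62 ± 0.149, adjusted p = 0.00707) and *Rrs1* (0.81 ± 0.203, adjusted p = 0.00949), all by limma. In GENCODE M21 these genes are at chr10:62580251-62602281 (*Ddx21*), chr10:13178140-13193168 (*Ltv1*), chr17:32036100-32062865 (*Rrp1b*) and chr1:9545408-9547455 (*Rrs1*), the first pair on the minus and the second on the plus strand. For *Ddx21* the *GFP*-NSPC cultures numbered 5 to 8 were at 807.35, 678.16, 799.48 and 773.14 CPM and the *Dbx2*-NSPC cultures at 437.86, 446.05, 487.57 and 461.21 CPM, whereas in numbers 1 to 4 the means were 386.6 ± 44.5 and 399.1 ± 73.9 CPM (SD, n = 4). The high values of *Ddx21* were therefore those of 1 transgene in 1 set, and the other 12 cultures lay between 323.9 and 500.9 CPM. *Ltv1*, which escorts the small subunit precursor out of the nucleus, had the same pattern, with 49.32, 41.10, 53.96 and 57.57 CPM in *GFP*-NSPCs numbered 5 to 8 and 23.58, 35.72, 27.54 and 27.69 CPM in the *Dbx2*-NSPCs of these numbers. In numbers 1 to 4 its means were 27.2 ± 6.81 and 29.6 ± 7.37 CPM (SD, n = 4).

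*Rrp1b*, a nucleolar protein of large subunit maturation that also targets a phosphatase to the nucleolus, went from 83.4 ± 4.43 CPM with *GFP* to 98.8 ± 13.7 CPM with *Dbx2* in numbers 1 to 4, and from 124.8 ± 7.56 to 95.6 ± 5.14 CPM in numbers 5 to 8 (SD, n = 4). *Rrs1*, which brings the 5S ribonucleoprotein into the large subunit, went the other way. It was at 76.54, 83.24, 73.31 and 101.97 CPM in *GFP*-NSPCs numbered 1 to 4 and at 56.51, 61.61, 51.12 and 43.42 CPM in *Dbx2*-NSPCs, with no overlap (log2 fold change -0.65 ± 0.143, limma adjusted p = 0.00906). In numbers 5 to 8 its means were 73.1 ± 7.57 and 82.4 ± 15.8 CPM (SD, n = 4), with a log2 fold change of 0.16 ± 0.134. *Dkc1* fell by 0.63 on the log2 scale in numbers 5 to 8, from 503.5 ± 68.0 to 323.0 ± 28.8 CPM (SD, n = 4), and had means that differed by less than the SD in numbers 1 to 4 (320.4 ± 23.7 and 320.7 ± 85.6 CPM), but the difference between its folds, -0.60 ± 0.194, had an adjusted p of 0.0523 in limma. In the fit with the replicate number as a block this adjusted p was 0.0167, so *Dkc1* was called there, with the other 5, where 10.4% of all tested genes were.

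**Figure D3:**
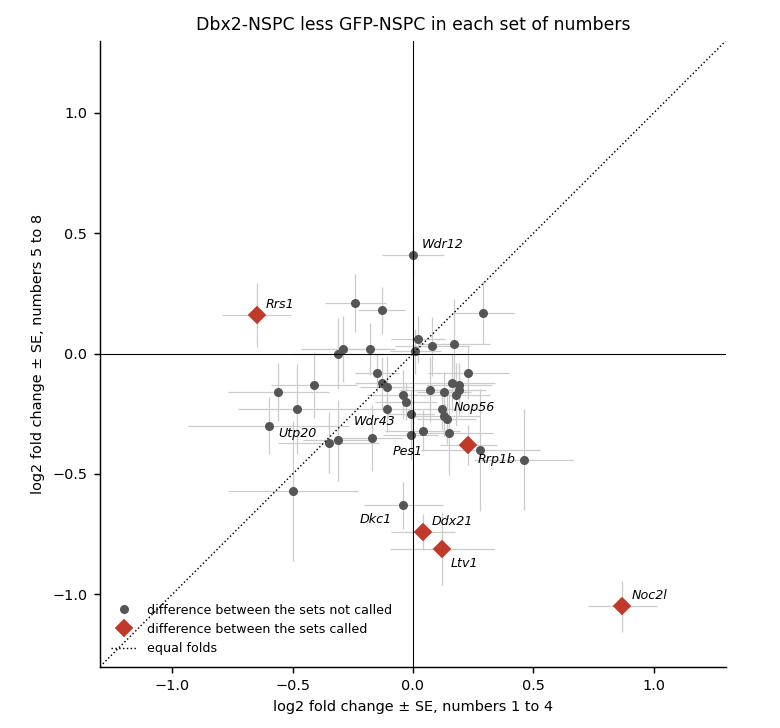
Log2 fold change between *Dbx2*-NSPCs and *GFP*-NSPCs in numbers 1 to 4 (horizontal axis) and in numbers 5 to 8 (vertical axis) for each of the 47 genes, with standard errors, 4 cultures per group and set; the dotted line marks equal folds. Red diamonds are the 5 genes whose folds differed between the sets by limma's interaction term, and *Noc2l*, at 0.87 and -1.05, lies farthest from the line.

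**Figure D4:**
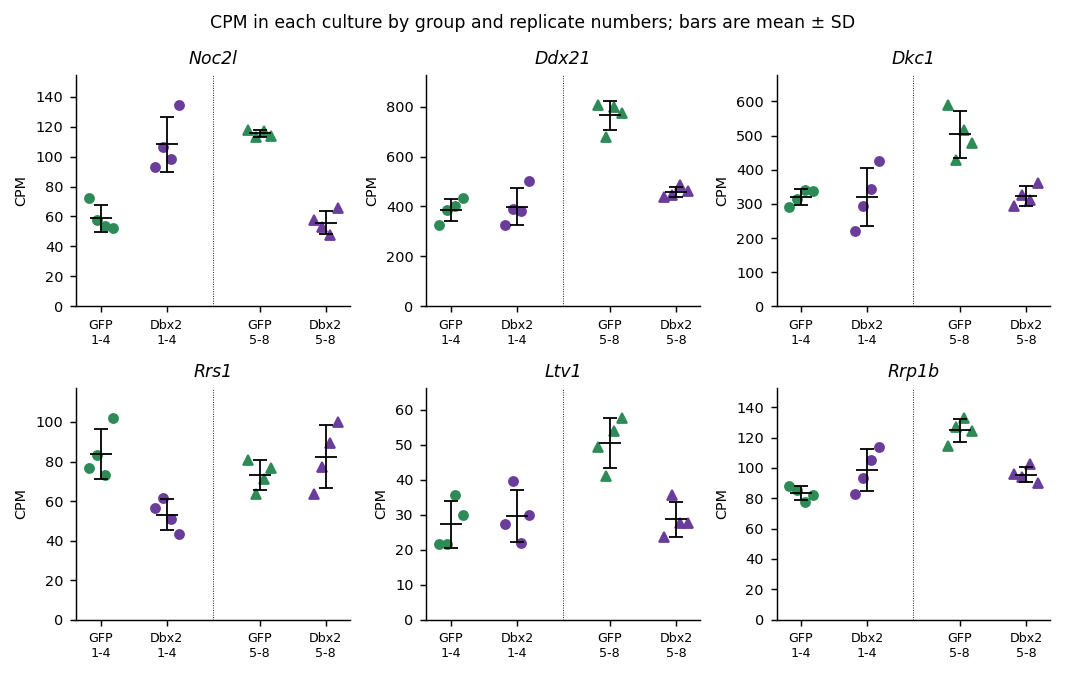
CPM of 6 members (vertical axes from 0) in each culture, *GFP*-NSPCs in green and *Dbx2*-NSPCs in purple, with numbers 1 to 4 as circles and 5 to 8 as triangles; bars are the mean ± SD of 4 cultures. For *Ddx21*, *Dkc1*, *Ltv1* and *Rrp1b* the *GFP*-NSPC cultures numbered 5 to 8 stand above the other cultures, *Noc2l* crosses over, and *Rrs1* is lowest in *Dbx2*-NSPCs numbered 1 to 4.

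The 3 members of one complex did not move alike in numbers 5 to 8. *Pes1*, *Bop1* and *Wdr12* together form the PeBoW complex of large subunit maturation. *Pes1* fell from 87.7 ± 8.67 to 68.8 ± 4.57 CPM (SD, n = 4), or -0.34 ± 0.101 on the log2 scale (limma, adjusted p = 0.0231). *Wdr12* rose from 95.5 ± 5.62 to 126.8 ± 8.62 CPM (SD, n = 4), or 0.41 ± 0.0863 on the log2 scale (limma, adjusted p = 0.00353). *Bop1* was at 43.6 ± 3.52 and 40.2 ± 3.47 CPM, with -0.12 on the log2 scale (limma, adjusted p = 0.531). In numbers 1 to 4 the log2 fold changes of *Pes1*, *Bop1* and *Wdr12* were -0.01, 0.16 and 0.00, and the difference of folds between the sets was not called for any of the 3. Whether the 3 genes differ from each other was not tested.

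Other genes of the same pathway, taken from a list of 117 further factors of which 114 were tested, gave few calls too. In *Dbx2*-NSPCs 8 were lower and 1 higher (7.89% of the 114, against 15.8% of all tested genes), the median log2 fold change was -0.087 and 80 of the 114 were negative, values close to those of the 47. *Krr1*, a small subunit factor, fell from 77.9 ± 10.9 to 48.6 ± 7.52 CPM (SD, n = 8), or -0.68 ± 0.111 on the log2 scale (limma, adjusted p = 0.0003). *Rpf2*, which joins *Rrs1* in bringing in the 5S particle, fell from 82.0 ± 15.9 to 55.3 ± 6.04 CPM (SD, n = 8), or -0.55 ± 0.114 on the log2 scale (limma, adjusted p = 0.00255). Both were lower in the *Dbx2* culture of all 8 numbers, and *Krr1* was called within each set of 4 numbers as well. *Znhit3*, an assembly factor of box C/D particles, *Exosc7*, a subunit of the RNA exosome, and *Nol12*, a large subunit factor, fell by 0.59, 0.49 and 0.35 on the log2 scale. These 5 calls held whichever culture was left out, and those of *Rpf2*, *Znhit3* and *Nol12* did not hold with the mitochondrial share as a covariate. *Rpf2*, *Exosc7* and *Nol12* were not called in numbers 1 to 4 alone. *Znhit3* was not called in numbers 5 to 8 alone or without number 1 of both groups. For *Rpf2* the log2 fold change was -0.26 in numbers 1 to 4 and -0.83 in numbers 5 to 8. *Wdr18*, *Ddx47* and *Rrp8* were also called lower, but held in only 7, 7 and 4 of the 16 fits without 1 culture, and *Rrp8* was not called by edgeR or DESeq2. *Polr1e*, a subunit of RNA polymerase I, went from 12.9 ± 4.15 to 19.0 ± 4.33 CPM (SD, n = 8), or 0.58 ± 0.192 on the log2 scale (limma, adjusted p = 0.0458). It was called in 3 of the 16 fits without 1 culture, which were those without *GFP*-NSPC 5, *GFP*-NSPC 8 or *Dbx2*-NSPC 5, and neither without a filter on low values nor with the mitochondrial share as a covariate. With the replicate number as a block, 13 of the 114 were lower and 3 higher (21.7% of all tested genes were called), all 9 among them. With the log2 mitochondrial share as a covariate 3 were lower and 2 higher (6.17%), and of the 9 only *Krr1* and *Exosc7* were among these. Within numbers 5 to 8, 13 of the 114 were lower and 0 higher (11.7% and 11.5% of all tested genes). Within numbers 1 to 4, 5 were lower and 4 higher (7.37% and 8.19%). *Nol9*, *Exosc10* and *Mrto4* were called in both sets in limma, in opposite directions as *Noc2l* was. Their log2 fold changes were 0.87, 0.69 and 0.62 in numbers 1 to 4 and -1.1, -0.95 and -0.79 in numbers 5 to 8.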

How the data were processed

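RNA from 8 *GFP*-NSPC and 8 *Dbx2*-NSPC cultures was sequenced by the authors as single-end reads of 101 bp from QuantSeq 3′ libraries made with 100 ng of total RNA. The submitters' processing notes name FastQC 0.11.8, STAR 2.5.0a and edgeR 3.36, with genome build GRCm38 (mm10), and adapters, poly-A tails and low-quality ends had been trimmed. The tool and the strand used for counting are not given in the sources used here. The authors deposited 1 table of CPM, which are gene read numbers brought to a common total in every sample, and all its sample columns were used (0 left out). Low values were whole multiples of what 1 read is worth, and up to 300 reads 100.0% of them were whole within 0.006 CPM, so whole reads could be recovered, and 3 reads were worth 0.911 to 1.66 CPM. Such floors cover counting error only, since the reads carry no molecular identifiers.

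Groups came from the transgene in the labels. The filter asked for over 1 CPM in 4 samples or more, and the genes that passed went into limma 3.58.1 (lmFit, eBayes with trend, 2-sided) in R 4.3.3 on log2(CPM + 0.5), without a covariate because the labels give no cell line, with Benjamini-Hochberg adjustment over all 12533 genes and a threshold of 0.05. Fold changes are on this scale and are understated for low genes. The paper's own edgeR fit had the cell line as a covariate. The main fit here has neither the line nor the number set, so the difference between numbers 1 to 4 and 5 to 8 stays in its spread. Alternatives were edgeR 4.0.16, DESeq2 1.42.0 (both on recovered reads), other pseudocounts, filters and scalings, a replicate block, the sets of numbers and each culture left out. Same-numbered cultures deviated together, with correlations of their deviations from the group means of 0.152 to 0.303 in all 8 numbers. These deviations also hold the difference between numbers 1 to 4 and 5 to 8. The most alike culture of the other group had the same number for only 4 of 8 *GFP* and 2 of 8 *Dbx2* cultures. It lay in the same set of numbers for all 16. The correlations therefore do not establish pairing by number, and the replicate block, which takes the numbers as pairs, is an alternative only. In simulated data with 200 of 12533 genes changed 2-fold between the groups, 193 of the changed genes were found by limma, 195 by edgeR and 195 by DESeq2, and 11, 9 and 19 unchanged genes were called. The simulation gave all genes the same dispersion, held no difference between the number sets and changed only genes with more reads. It therefore does not show how often changes as small as those of the members would be found in the deposited data. In the deposited data edgeR called 1928 and DESeq2 2197 of the 12533 genes, and limma 1982.

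The members, the role groups, the list of further factors, the number sets and the tests were chosen with earlier results of these data known. The lowest, median and highest values are given for the 2 members of each role with the smallest p, the 8 with the smallest p overall and the 2 of largest mean CPM. Values by culture are given for *Noc2l*, *Ddx21*, *Ltv1* and *Rrs1*, from among those with different folds in the sets of numbers, and other members are named through the calls they enter. Promoter sequences are from RefSeq, gene positions from GENCODE M21, and plots were drawn with matplotlib 3.10.9.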

Additional observations from a re-analysis of the deposited data

Results flagged for a closer look

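In 6 of the 96 groups examined (each member and each score in each group of 8 cultures), 1 culture stood apart from the other 7 by Dixon's test, where chance gives about 5%. These were *Nolc1* in *GFP*-NSPC 1 at 139.39 CPM, the lowest of its group, *Surf6* in *GFP*-NSPC 5 at 24.94 CPM, the highest, *Nop10* in *GFP*-NSPC 8 at 106.1 CPM, the lowest, *Gar1* in *Dbx2*-NSPC 4 at 11.84 CPM, the lowest, *Bysl* in *GFP*-NSPC 2 at 34.92 CPM, the lowest, and *Emg1* in *GFP*-NSPC 4 at 93.31 CPM, the highest. They fell on 6 different cultures. Without *GFP*-NSPC 8, *Nop10* was called lower (log2 fold change -0.34).

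For 5 members the fold change between *Dbx2*-NSPCs and *GFP*-NSPCs differed between numbers 5 to 8 and numbers 1 to 4 by limma's interaction term, where 9.44% of all tested genes did. The differences on the log2 scale were -1.92 for *Noc2l*, -0.93 for *Ltv1*, -0.77 for *Ddx21*, -0.62 for *Rrp1b* and 0.81 for *Rrs1*. Over the same sets, the fold of *Dbx2* itself was from 120.4 to 173.5 CPM in numbers 1 to 4 and from 34.0 to 136.2 CPM in numbers 5 to 8, and the mitochondrial share rose from 4.51% to 6.01% and from 3.94% to 6.58%, and the part of either in these differences was not tested.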

How the results depend on the processing

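The count of 0 called members stayed at 0 under both other pseudocounts, without a filter, under 3 rescalings of the samples and quantile normalization, without the trend, in edgeR and DESeq2, and with the mitochondrial share as a covariate. It was 1 with a mean of at least 10 CPM as the filter (*Grwd1*) and 1 with the replicate block (*Utp20*), 4 with the number set as a covariate (*Ddx21*, *Dkc1*, *Grwd1* and *Utp20*, all lower), 2 in numbers 1 to 4 alone, 10 in numbers 5 to 8 alone and 3 in edgeR with the number set (*Grwd1* and *Utp20* lower, *Noc4l* higher). Leaving out 1 culture at a time gave 0 to 1 (*Grwd1* without *GFP*-NSPC 3 or *Dbx2*-NSPC 5, *Nop10* without *GFP*-NSPC 8, *Emg1* without *Dbx2*-NSPC 7). The number of further factors called, 9, was 16 with the replicate block and 18 with the number set (all 9 among them in both), 14 in edgeR with the number set (8 of the 9), 5 with the mitochondrial share (2 of the 9), and 5 to 10 without 1 culture, being 5 without *GFP*-NSPC 7, *Dbx2*-NSPC 2 or *Dbx2*-NSPC 6. The score difference of -0.135 kept its sign throughout. It was -0.176 to -0.107 without 1 culture, -0.096 with a mean of at least 10 CPM as the filter, -0.083 under quantile normalization and -0.018 with the mitochondrial share. The count of 5 members with different folds lay between 4 and 7, and *Ltv1* was lost without the trend. Fold changes near 0 changed sign: without 1 culture *Ncl* lay between -0.02 and 0.10, *Npm1* between -0.05 and 0.07 and *Polr1b* between -0.14 and 0.05, *Npm1* was -0.01 without number 1 of both groups, *Polr1b* went to 0.28 in numbers 1 to 4 and *Fbl* to 0.02 in numbers 5 to 8, and with the mitochondrial share *Polr1a* went to 0.05 and *Polr1b* to 0.13. *Ddx21*, at -0.35 over all cultures, was at 0.04 in numbers 1 to 4. edgeR with the number set, the mitochondrial share and leaving out number 1 of both groups were chosen after seeing the data. The causes were not tested. The block changed no other call among the 16 members given with their ranges.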
